A study of Mus musculus with 6 samples.

Results

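The renin-angiotensin system was described here through 8 genes of the mouse kidney, *Ren1*, *Agt*, *Ace*, *Agtr1a*, *Atp6ap2*, *Enpep*, *Mme* and *Agtrap*. They were chosen by name, as the rows of the deposited expression table that carry these symbols, and all 8 were found among the 21367 genes of the table. The mRNA-seq data came from the left kidneys of 3 *Ptpn6*+/mev mice and 3 wild-type littermates, with 1 library per mouse. All 6 mice were 7 weeks old and on a C57BL/6 background, and all had undergone the same renal ischemia-reperfusion injury (IRI): the right kidney was removed, the vessels of the left kidney were clamped for 34 min, and the kidney was taken at 24 h of reperfusion. Kidneys without IRI were not analysed here, so each comparison is between genotypes within injured kidneys. *Ptpn6*+/mev mice carry 1 copy of viable motheaten, a splice-site allele of *Ptpn6*, which encodes the tyrosine phosphatase SHP-1. The allele is present in every cell of the mouse, and the samples are whole kidney, so a lower value can stand for fewer cells of a type or for less RNA per cell, and these cannot be told apart.

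Angiotensinogen, the product of *Agt*, is the substrate of the system. Renin, released by juxtaglomerular cells of the afferent arteriole, cuts angiotensin I from it, and angiotensin-converting enzyme (ACE) removes the last pair of residues to give angiotensin II, which constricts vessels and retains sodium through the AT1 receptor. Most circulating angiotensinogen comes from the liver, and the proximal tubule of the kidney makes some of its own and carries peptidases on its brush border that trim angiotensin peptides.

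The counts of the 6 libraries summed to between 10271590 and 12361745. *Ptpn6* itself was listed at 11.85, 14.66 and 13.61 FPKM (fragments scaled to the transcript's length and the library's total) in *Ptpn6*+/mev replicates 1 to 3 and at 17.47, 10.87 and 15.44 FPKM in wild-type replicates 1 to 3, with a log2 fold change of -0.19 (SE 0.17, adjusted p = 0.715), and of -0.34 (adjusted p = 0.201) without wild-type replicate 2, which had the lowest value. Because the allele alters splicing, the gene-level value does not check the genotype. Wild-type replicate 2 stood apart from the other libraries: the root mean square difference of log2 CPM between it and each of the others was 0.595 to 0.654, against 0.307 to 0.484 for all pairs without it. It also held fewer reads of stromal cell markers. The summed FPKM of 10 endothelial markers was 163.4 there and 354.4 to 398 in the other 5 libraries, and that of 10 mesangial, smooth muscle and pericyte markers was 83.22 against 207.4 to 248.4. For 6 fibroblast markers it was 45.02 against 131.4 to 227.8. The sum for macrophage and neutrophil markers was also lowest there, at 96.31 against 128.4 to 247.7. Values without this library are therefore given for each of the 8 genes it moved and for the main values of the gene lists. All 14 proximal tubule markers listed were detected, with a summed FPKM of 2226 to 2789.

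The peptide that the pathway processes, and the active sites of the enzymes that process it, can be read from the coding sequences. Each is shown as the codons on the coding strand, 5′ to 3′, from GENCODE M21 transcripts on GRCm38. In exon 2 of *Agt*, at chr8:124564450-124564479 on the minus strand, the 10 codons of angiotensin I begin at codon 30. The capitals mark the 8 codons of angiotensin II, the lower case letters the last 2 codons, removed by ACE, and the first codon encodes the residue that the *Enpep* product takes off.
Agt, angiotensin I: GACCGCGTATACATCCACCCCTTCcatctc
Renin is an aspartic protease. Its 2 active-site motifs lie in exon 3 (chr1:133354853-133354879, plus strand, motif at codon 102) and exon 7 (chr1:133358984-133359010, codon 287) of *Ren1*, and the motif codons are in capitals.
Ren1, first site: gtcatctttGACACGGGTtcagccaac
Ren1, second site: gtagtggtgGACACTGGTtcatccttt
The peptidases of *Ace*, *Enpep* and *Mme* are zinc enzymes that share the HEXXH motif, whose 3 fixed codons are in capitals. *Ace* holds it in both copies of its duplicated catalytic domain, in exon 8 of 25 (chr11:105972910-105972924, plus strand, codon 395) and exon 20 (chr11:105985094-105985108, codon 993). In *Enpep* it lies in exon 5 of 20 (chr3:129309772-129309786, minus strand, codon 385), and in *Mme* in exon 18 of 23 (chr3:63362021-63362035, plus strand, codon 584). No in-frame match was found in *Agtr1a*, *Atp6ap2* or *Agtrap*, which encode no such enzyme.
Ace, first site: CACGAGatgggcCAC
Ace, second site: CACGAAatgggcCAC
Enpep: CACGAActtgtaCAC
Mme: CATGAAatcacaCAT

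On the FPKM scale, which is per length, *Ren1* had the highest level of the 8 genes, with a mean of 74.6 over the 6 libraries. It was followed by *Enpep* (42.01), *Atp6ap2* (27.0), *Agtrap* (23.7), *Agt* (15.8), *Ace* (13.2), *Agtr1a* (12.7) and *Mme* (8.56). *Ren1* was above *Enpep*, and *Enpep* above *Atp6ap2*, in 6 of 6 libraries, and their ranges did not overlap. The ranges of every later pair of neighbours overlapped, and *Agt*, *Ace* and *Agtr1a* could not be ordered, since each was above the next in only 3 of 6 libraries. The summed level of the 8 genes was 198 to 232 FPKM in *Ptpn6*+/mev kidneys and 216 to 228 in wild-type kidneys.

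**Figure D1:**
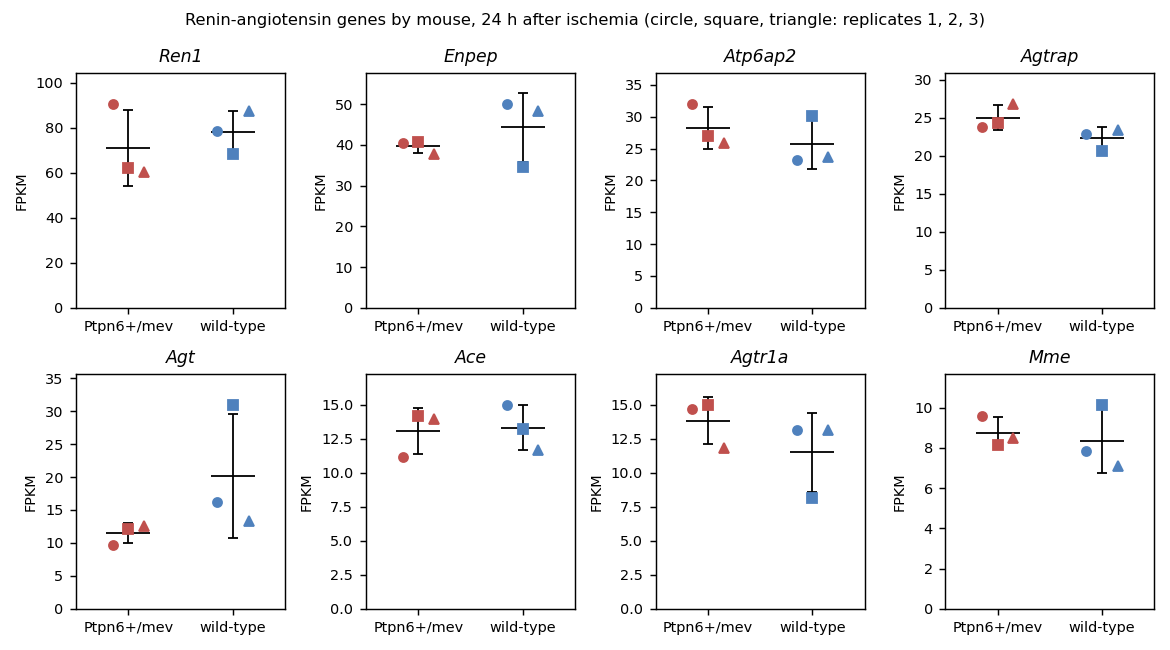
Level of each of the 8 renin-angiotensin genes in FPKM (vertical axis, starting at 0) in 3 *Ptpn6*+/mev kidneys (red) and 3 wild-type kidneys (blue). Each point is 1 mouse, with its replicate number given by the shape. Horizontal lines are group means and bars are ± SD (n = 3). *Agt* was lower and *Agtrap* higher in every *Ptpn6*+/mev mouse, while the groups overlapped for the other 6 genes.

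*Agt*, on chromosome 8 (124556534 to 124569706, minus strand), encodes the substrate. Its level was 9.75, 12.16 and 12.64 FPKM in *Ptpn6*+/mev replicates 1 to 3, and 16.27, 30.97 and 13.26 FPKM in wild-type replicates 1 to 3, from 190 to 645 counts. Every *Ptpn6*+/mev mouse lay below every wild-type mouse, but *Ptpn6*+/mev replicate 3 and wild-type replicate 3 were close to each other, and wild-type replicate 2 lay far above the rest. The group means were 11.5 ± 1.55 and 20.2 ± 9.48 FPKM (SD, n = 3 each). The log2 fold change of *Ptpn6*+/mev over wild-type was -0.90 (SE 0.33, 95% interval -1.65 to -0.14), a ratio of 0.538, with an adjusted p of 0.319 by edgeR's quasi-likelihood test, so *Agt* did not pass the threshold of 0.05. With *Ptpn6*+/mev replicate 1 or 2 left out its unadjusted p was no longer under 0.05. Without wild-type replicate 2 the wild-type mean was 14.8 FPKM and the log2 fold change -0.40 (SE 0.15, adjusted p = 0.215). *Agt* is also a liver gene, and other genes of hepatocytes were measured beside it. Of 6 liver markers, 5 passed the filter on low counts, and 4 of these (*Alb*, *Apob*, *Fgb* and *Serpina1a*) were lower in *Ptpn6*+/mev kidneys at an unadjusted p under 0.05. Over all genes tested 12.2% were under that threshold, in either direction. The fifth liver marker, *Ttr*, was at 0.31 (adjusted p = 0.640), and at 0.54 without wild-type replicate 2 (adjusted p = 0.151), where its unadjusted p was under 0.05. The quasi-likelihood test called 0 of the 5, DESeq2 called 4 and edgeR's exact test 3. Over all genes tested they called 18, 388 and 390. With wild-type replicate 2 left out, the quasi-likelihood test called 2, *Alb* (adjusted p = 0.0349) and *Apob* (adjusted p = 0.0015), against 237 of all genes. The summed level of the liver markers was 69.97 to 77.29 FPKM in *Ptpn6*+/mev and 88.23 to 124.6 FPKM in wild-type kidneys, highest in wild-type replicate 2. Single markers differed in this. *Alb* and *Apob* were highest in that library. *Fgb* was highest in wild-type replicate 3 (63.94 FPKM), *Serpina1a* in wild-type replicate 1 (17.48 FPKM) and *Ttr* in *Ptpn6*+/mev replicate 3 (38.14 FPKM). The sixth marker, *Apoa1*, had at most 3 counts in a library. *Alb*, the albumin gene, stayed at 1.70 to 6.29 FPKM. The part of the liver markers in the *Agt* values was not tested.

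*Ren1*, on chromosome 1 (133350510 to 133360325, plus strand), encodes renin. Its level was 90.69, 62.36 and 60.38 FPKM in *Ptpn6*+/mev mice and 78.42, 68.26 and 87.53 FPKM in wild-type mice, from 1032 to 1728 counts. The highest and the 2 lowest values were all in *Ptpn6*+/mev mice, so the groups overlapped. The means were 71.1 ± 17.0 and 78.1 ± 9.64 FPKM (SD, n = 3), and the log2 fold change was -0.20 (SE 0.16, 95% interval -0.58 to 0.18, adjusted p = 0.695). Without *Ptpn6*+/mev replicate 1 it was -0.41 (adjusted p = 0.356), and its unadjusted p was then under 0.05. Without wild-type replicate 2 the log2 fold change was -0.26 (adjusted p = 0.441). Without *Ptpn6*+/mev replicate 2 it was -0.12 (adjusted p = 0.898), without *Ptpn6*+/mev replicate 3 it was -0.09 (adjusted p = 0.958), and without wild-type replicate 3 it was -0.13 (adjusted p = 0.799), so its size depended on single mice. The libraries with the most *Ren1* were also those with RNA of fat cells, which was noticed after the values were seen. The summed level of *Adipoq*, *Plin1*, *Lep* and *Retn* was 11.96, 0.36 and 0.06 FPKM in *Ptpn6*+/mev replicates 1 to 3, and 13.08, 0.21 and 14.18 FPKM in wild-type replicates 1 to 3. *Adipoq*, the adiponectin gene, was listed at 5.19, 4.36 and 7.30 FPKM in *Ptpn6*+/mev replicate 1 and wild-type replicates 1 and 3, at 0.07 in wild-type replicate 2 and at 0 in the other 2 libraries. *Plin1* and *Retn* were also at 0 in *Ptpn6*+/mev replicates 2 and 3. The part of these markers in the *Ren1* values was not tested.

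Among the peptidases, *Ace* on chromosome 11 (105967945 to 105989964, plus strand) encodes the enzyme that makes angiotensin II and inactivates bradykinin. It was listed at 11.15, 14.16 and 13.94 FPKM in *Ptpn6*+/mev mice and at 15, 13.25 and 11.70 FPKM in wild-type mice, from 494 to 749 counts. The groups overlapped, the means were 13.1 ± 1.68 and 13.3 ± 1.65 FPKM (SD, n = 3), and the log2 fold change from the counts was -0.17 (SE 0.13, 95% interval -0.48 to 0.14, adjusted p = 0.694). The difference in FPKM was smaller than that in TMM-scaled counts. The transcript length by which the deposited counts of *Ace* had been divided was 3.99 to 4.63 kb across libraries, and the TMM factors, which the FPKM do not hold, were 1.02 to 1.03 in *Ptpn6*+/mev and 0.929 to 1.01 in wild-type libraries. Their parts in the difference were not tested. For *Ren1*, *Agt*, *Atp6ap2*, *Enpep* and *Agtrap* this length was nearly constant, and for *Agtr1a* it was 2.04 to 2.21 kb. An antisense gene, *Gm11651*, overlaps *Ace*, and the library kit does not mark strand, so reads of the pair cannot be told apart. The same holds for *Enpep* and *Gm42628*, a processed pseudogene on the other strand, and for *Agtr1a* and *Gm48161*, an intronic gene on its own strand, where they overlap.

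*Enpep*, on chromosome 3 (129269175 to 129332720, minus strand), encodes aminopeptidase A, which turns angiotensin II into angiotensin III. Its level was 40.45, 40.80 and 37.90 FPKM in *Ptpn6*+/mev mice and 50.11, 34.48 and 48.32 FPKM in wild-type mice, from 1588 to 2505 counts. The *Ptpn6*+/mev mice were close together, between wild-type replicate 2 and the other wild-type mice. The means were 39.7 ± 1.58 and 44.3 ± 8.55 FPKM (SD, n = 3), with a log2 fold change of -0.22 (SE 0.12, 95% interval -0.51 to 0.06, adjusted p = 0.543). Without wild-type replicate 2 it was -0.35 (SE 0.08, adjusted p = 0.067), which was the lowest adjusted p of any of the 8 genes in the fits that left out 1 library.

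*Mme*, on chromosome 3 (63241537 to 63386030, plus strand), encodes neprilysin, which cuts angiotensin I to angiotensin 1-7. It had the lowest level, at 9.61, 8.13 and 8.51 FPKM in *Ptpn6*+/mev mice and 7.85, 10.15 and 7.08 FPKM in wild-type mice, from 265 to 423 counts. Wild-type replicate 2 had the highest value and the other wild-type mice the lowest, so that the *Ptpn6*+/mev mice lay between them. The means were 8.75 ± 0.769 and 8.36 ± 1.60 FPKM (SD, n = 3). The log2 fold change was 0.00068 (SE 0.22, 95% interval -0.51 to 0.51, adjusted p = 0.999). Without wild-type replicate 2 it was 0.31 (adjusted p = 0.234), and without wild-type replicate 3 it was -0.16, so a direction could not be given. As for *Ace*, the length that links the counts of *Mme* to its FPKM varied, from 3.13 to 3.80 kb.

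On the receptor side, *Agtr1a* on chromosome 13 (30336441 to 30382867, plus strand) encodes the main AT1 receptor of the mouse kidney. Its level was 14.65, 14.98 and 11.83 FPKM in *Ptpn6*+/mev mice and 13.12, 8.17 and 13.16 FPKM in wild-type mice, from 198 to 337 counts. The lowest value, in wild-type replicate 2, lay apart from the other 5. The means were 13.8 ± 1.73 and 11.5 ± 2.87 FPKM (SD, n = 3), and the log2 fold change was 0.25 (SE 0.16, 95% interval -0.13 to 0.62, adjusted p = 0.614). Without that library it was 0.10 (adjusted p = 0.731). The receptor is known in smooth muscle and mesangial cells, whose summed markers were also lowest in wild-type replicate 2, as given above. The smooth muscle genes *Myh11* and *Cnn1* were exceptions, and each other marker of that list was lowest there. *Myh11* was at 5.09 FPKM in wild-type replicate 2 (4.02 to 5.92 over all libraries) and *Cnn1* at 2.75 FPKM (2.11 to 3.16). The part of these markers in the *Agtr1a* value was not tested. The paralog *Agtr1b* had at most 1 count in a library, and *Agtr2*, the gene of the AT2 receptor, was at 0 in all 6.

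*Agtrap*, on chromosome 4 (148077061 to 148088031, minus strand), encodes a membrane protein that binds the AT1 receptor and promotes its internalization. Its level was 23.75, 24.39 and 26.86 FPKM in *Ptpn6*+/mev mice and 22.94, 20.70 and 23.35 FPKM in wild-type mice, from 911 to 1159 counts. Every *Ptpn6*+/mev mouse was above every wild-type mouse, by a small margin. The means were 25 ± 1.64 and 22.3 ± 1.43 FPKM (SD, n = 3). After TMM scaling the log2 fold change was 0.09 (SE 0.09, 95% interval -0.10 to 0.29, adjusted p = 0.732), and it was 0.07 without wild-type replicate 2, so the separation in FPKM did not pass the test.

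*Atp6ap2*, on chromosome X (12587801 to 12617049, plus strand), encodes the (pro)renin receptor, which is also an accessory subunit of the vacuolar proton pump. Its level was 32.02, 26.95 and 25.82 FPKM in *Ptpn6*+/mev mice and 23.22, 30.08 and 23.63 FPKM in wild-type mice, from 584 to 770 counts. The groups overlapped through wild-type replicate 2, which was above 2 of the 3 *Ptpn6*+/mev mice. The means were 28.3 ± 3.30 and 25.6 ± 3.85 FPKM (SD, n = 3), with a log2 fold change of 0.06 (SE 0.15, 95% interval -0.29 to 0.42, adjusted p = 0.918). Without that library it was 0.23 (adjusted p = 0.325), and without *Ptpn6*+/mev replicate 1 it was -0.04, so a direction could not be given here either.

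All 8 genes passed the filter on low counts. At an adjusted p under 0.05, 0 of the 8 were called by edgeR's quasi-likelihood test, where 18 of 13036 genes tested (0.138%) were called, and DESeq2, edgeR's exact test and limma also called 0 of the 8. At an unadjusted p under 0.05, 1 of the 8 (*Agt*) was found, against 12.2% of all genes tested, and the groups did not overlap for 2 of the 8 (*Agt* and *Agtrap*), against 20.4% of all genes. Both shares were near their background. Without wild-type replicate 2, 3 of the 8 (*Agt*, *Enpep* and *Mme*) had an unadjusted p under 0.05, against 17.2% of genes, and 0 had an adjusted p under 0.05, while the count over all genes was 237. The log2 fold changes of the 8 genes had a median of -0.08, with 4 below and 4 above 0, beside a median of -0.002 over all genes tested.

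**Figure D2:**
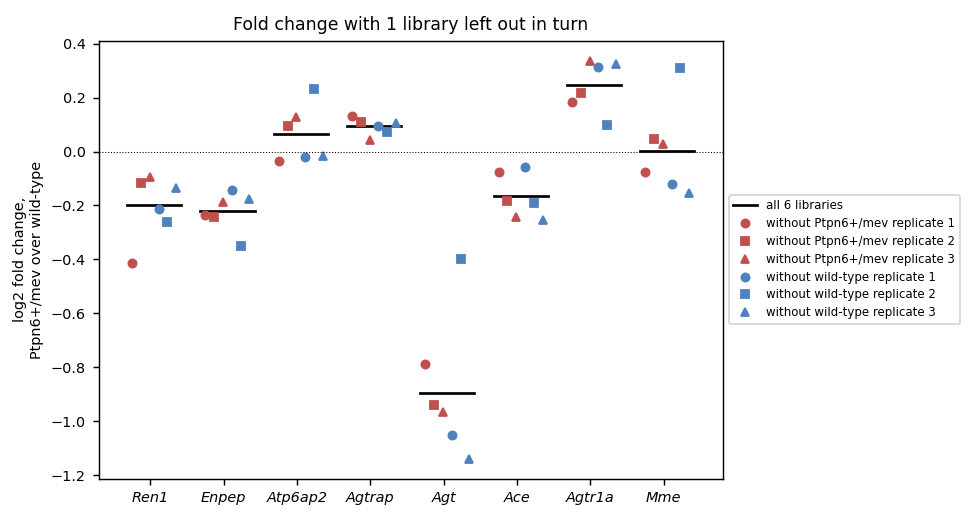
Log2 fold change of *Ptpn6*+/mev over wild-type (vertical axis) for each of the 8 genes, from edgeR fits to all 6 libraries (black line) and to 5 libraries, with 1 left out in turn (red, a *Ptpn6*+/mev replicate left out; blue, a wild-type replicate). *Agt* stayed below 0 in all of these fits, between -1.14 and -0.40, while *Atp6ap2* and *Mme* lay on both sides of 0.

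The rest of the pathway was read from a list of 20 other genes of angiotensin formation, breakdown and reception. Of these, 19 were in the table and 12 passed the filter. Of the 12, 0 were called by edgeR's quasi-likelihood test, against 1 by DESeq2, 1 by edgeR's exact test and 0 by limma, and 2 had an unadjusted p under 0.05, *Anpep* lower and *Klk1* higher in *Ptpn6*+/mev kidneys. The median log2 fold change of the 12 was 0.01, and -0.02 without wild-type replicate 2. For this and the later lists, 12.2% of all genes tested had an unadjusted p under 0.05, in either direction. DESeq2 called 388 of all genes and edgeR's exact test 390. Without wild-type replicate 2 the share was 17.2%, and the quasi-likelihood test called 237.

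*Anpep* encodes aminopeptidase N, a brush border enzyme that converts angiotensin III to angiotensin IV. Its level was 7.53, 13.55 and 8.83 FPKM in *Ptpn6*+/mev mice and 20.68, 18.10 and 16.27 FPKM in wild-type mice. The groups did not overlap, and wild-type replicate 2 lay between the other wild-type mice. The log2 fold change was -0.92 (SE 0.20, 95% interval -1.38 to -0.47, adjusted p = 0.114), and without wild-type replicate 2 it was -0.93 with an adjusted p of 0.0491. DESeq2 and edgeR's exact test also called *Anpep* with all 6 libraries.

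The most abundant genes of the list were *Klk1*, *Ctsd* and *Ctsa*. *Klk1*, the gene of tissue kallikrein, which releases kinins in the distal nephron, was listed at 4646, 3015 and 3051 FPKM in *Ptpn6*+/mev mice and at 2695, 2459 and 2388 FPKM in wild-type mice. The groups did not overlap, and the log2 fold change was 0.44 (SE 0.17, adjusted p = 0.344). Its unadjusted p was no longer under 0.05 with *Ptpn6*+/mev replicate 1, wild-type replicate 1 or wild-type replicate 3 left out. Its counts were partly fractional and the gene has many near-identical relatives, so the value is uncertain. *Ctsd*, for the lysosomal protease cathepsin D, was at 1229 to 1332 FPKM with a log2 fold change of -0.0007 (adjusted p = 0.998), and *Ctsa*, for the carboxypeptidase cathepsin A, at 109.7 to 136.6 FPKM with 0.09 (adjusted p = 0.739). Serine proteases of mast cells and neutrophils that can also form angiotensin II were near 0: *Cma1* had at most 3 counts in a library, *Mcpt4* at most 2 and *Ctsg* at most 1. *Cpa3*, for a mast cell carboxypeptidase, was at 0 in all 6. The Mas receptor gene, *Mas1*, had 3 to 13 counts.

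**Figure D3:**
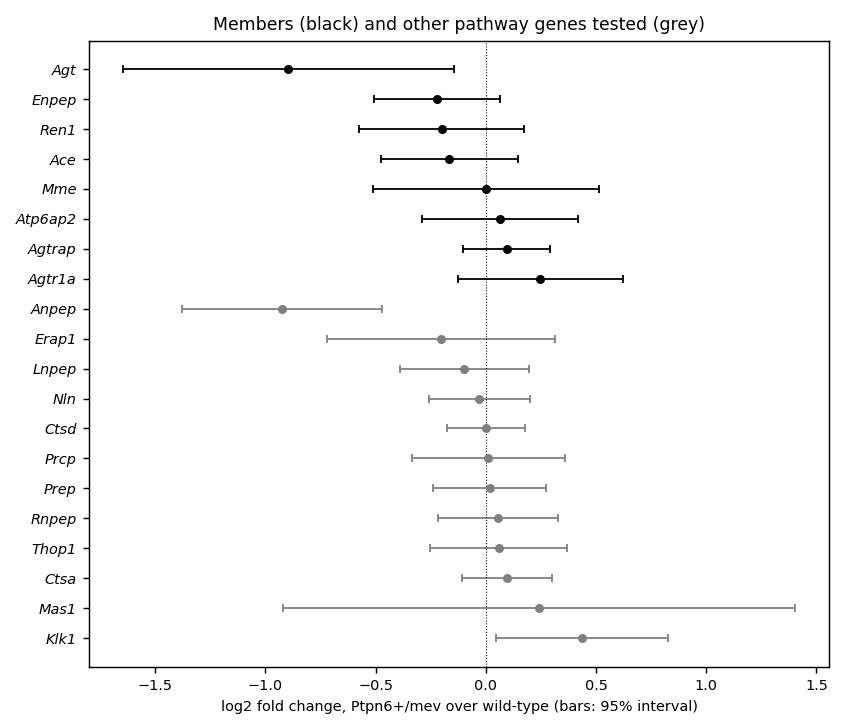
Log2 fold change of *Ptpn6*+/mev over wild-type (horizontal axis) with its 95% interval (bars) for the 8 genes (black) and the 12 other pathway genes that passed the filter (grey), from edgeR's fit to all 6 libraries. Only the intervals of *Agt*, *Anpep* and *Klk1* leave out 0.

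Of 17 genes that act on renin cells or on the macula densa, 0 were called by the quasi-likelihood test, against 1 by DESeq2 and 1 by edgeR's exact test, and 2 were lower at an unadjusted p under 0.05. *Vdr*, the vitamin D receptor gene, whose product represses renin transcription, was listed at 34.88, 29.03 and 26.45 FPKM in *Ptpn6*+/mev mice and at 39.95, 69.89 and 45.55 FPKM in wild-type mice. Every *Ptpn6*+/mev mouse was below every wild-type mouse, with a log2 fold change of -0.85 (SE 0.25, adjusted p = 0.222), and -0.49 without wild-type replicate 2. *Ep300*, for a histone acetyltransferase recruited to the renin gene, had a log2 fold change of -0.22 (adjusted p = 0.332). Its unadjusted p was not under 0.05 with edgeR's exact test, limma or the replicate block. With 1 library left out, it was under 0.05 only when that library was wild-type replicate 2. *Nr1h3*, for the liver X receptor alpha, had -0.22 (adjusted p = 0.623), and -0.36 (adjusted p = 0.131) without wild-type replicate 2. *Adcy6*, for an adenylyl cyclase of the cAMP signal that drives renin release, had -0.005 (adjusted p = 0.991). With wild-type replicate 2 left out, 0 were called and 5 of the 17 (*Ep300*, *Nr1h3*, *Ptger4*, *Ptgir* and *Vdr*) were lower at an unadjusted p under 0.05. In that fit 17.2% of all genes tested were under this threshold, in either direction. The median of the list was -0.08, as for the 8 genes, and -0.09 without that library.

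Of 13 genes for the coupling, desensitization and transport of the AT1 receptor, 0 were called by the quasi-likelihood test, DESeq2, edgeR's exact test or limma, and *Gabarap* and *Grk5* were higher at an unadjusted p under 0.05. With wild-type replicate 1 left out, neither was under that threshold. *Grk5* was also not under it with *Ptpn6*+/mev replicate 1, *Ptpn6*+/mev replicate 3 or wild-type replicate 2 left out. *Gabarap*, for a trafficking protein that binds the receptor's tail, was at 312.8, 327.0 and 311.8 FPKM in *Ptpn6*+/mev mice and at 235.0, 252.8 and 261.9 FPKM in wild-type mice. The groups did not overlap, and the log2 fold change was 0.27 (SE 0.08, adjusted p = 0.234). *Grk5*, for a receptor kinase, had 0.35 (adjusted p = 0.345). *Gna11*, for a G protein that the receptor engages, had -0.10 (adjusted p = 0.692), and *Gna12* -0.03 (adjusted p = 0.952), or -0.12 (adjusted p = 0.597) without wild-type replicate 2. The median of the list was 0.05, and -0.006 without that library.

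The vacuolar proton pump, of which the *Atp6ap2* product is an accessory part, was represented by 19 subunit genes. The quasi-likelihood test called 0 of the 19, against 2 by DESeq2 and 2 by edgeR's exact test, and *Atp6v0b*, *Atp6v0d1* and *Atp6v1c1* were higher at an unadjusted p under 0.05. Without wild-type replicate 2 the count under that threshold was 5 of the 19, against 17.2% of all genes tested. With limma it was 6 of the 19. *Atp6v1c1* was at 76.39, 74.92 and 73.93 FPKM in *Ptpn6*+/mev mice and at 50.94, 55.59 and 54.76 FPKM in wild-type mice. The groups lay well apart, with a log2 fold change of 0.41 (SE 0.09, adjusted p = 0.115), and an adjusted p of 0.0287 without wild-type replicate 2. *Atp6v0b* had 0.39 (adjusted p = 0.104) and *Atp6v0d1* 0.29 (adjusted p = 0.207). The most abundant subunit, *Atp6v0c*, had -0.04 (adjusted p = 0.885), and *Atp6v0e* 0.19 (adjusted p = 0.444). In FPKM 9 of the 19 were higher in every *Ptpn6*+/mev mouse, against 14% of all genes tested, while *Atp6ap2* itself was not. The median log2 fold change of the list was 0.07, and 0.11 without wild-type replicate 2.

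Of the 8 genes, *Enpep*, *Mme* and *Ace* encode brush border enzymes, and 10 other genes of brush border peptidases and their relatives were compared with them. The quasi-likelihood test called 0 of the 10, DESeq2 called 3, edgeR's exact test 2 and the quasi-likelihood test with wild-type replicate 2 left out called 3. Those 3 were *Anpep* and *Acy3*, lower, and *Tmem27*, higher at 0.93 (adjusted p = 0.0431) although it was at -0.41 (adjusted p = 0.866) with all 6 libraries. *Tmem27* was named after its values were seen. With all 6 libraries, *Anpep*, *Mep1a* and *Acy3* were lower at an unadjusted p under 0.05. *Mep1a*, for a meprin subunit, had a log2 fold change of -0.39 (adjusted p = 0.182) and *Acy3*, for an aminoacylase, -0.87 (adjusted p = 0.162). *Ggt1*, the gene of a gamma-glutamyl transferase, was the most abundant, at 234.8 to 365.8 FPKM, with -0.12 (adjusted p = 0.790), and -0.23 (adjusted p = 0.317) without wild-type replicate 2. The median of the list was -0.15, and -0.24 without that library, beside -0.22 and -0.35 for *Enpep*, -0.17 and -0.19 for *Ace*, and 0.00068 and 0.31 for *Mme*.

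Markers of the cells in which the 8 genes are known to be active were compared in the same way. Of 14 proximal tubule markers, 8 were lower and 0 higher at an unadjusted p under 0.05, with a median log2 fold change of -0.45. Over all 13036 genes tested, 875 were lower and 721 higher at that threshold. *Slc22a8*, for an organic anion transporter, was called (log2 fold change -0.91, adjusted p = 0.0443). It was called without wild-type replicate 2 as well (adjusted p = 0.0116), and not with any one of the other 5 libraries left out (adjusted p between 0.0543 and 0.343). With all 6 libraries DESeq2 called 6 of the 14, against 388 of all genes tested, and edgeR's exact test 6, against 390. Limma and the fit with a replicate block called 0 of the 14. The summed level of the 14 was 2226 to 2311 FPKM in *Ptpn6*+/mev and 2566 to 2789 FPKM in wild-type kidneys, without overlap. The median log2 fold change was -0.57 without wild-type replicate 2, and 6 of the 14 were then called. Of 11 tubular injury markers, 4 were higher and 1 lower at an unadjusted p under 0.05, and *Havcr1*, the kidney injury molecule-1 gene, was at 1436 to 1565 FPKM in *Ptpn6*+/mev and 1087 to 1262 FPKM in wild-type kidneys, with a log2 fold change of 0.27 (adjusted p = 0.325). The quasi-likelihood test called 0 of the 11, DESeq2 called 2 and edgeR's exact test 1. With wild-type replicate 2 left out, *Krt20* and *Krt18* were called, both higher, and the median of the list was 0.26 against 0.16. The 10 endothelial markers had a median of 0.16, and -0.14 without wild-type replicate 2, and the 10 mesangial, smooth muscle and pericyte markers had 0.13 and -0.02. The 6 fibroblast markers had -0.10 and -0.57. Without that library 2 of the 6 were called and 5 had an unadjusted p under 0.05, all lower. The part of these markers in the values of *Agt*, *Ace*, *Enpep*, *Mme* and *Agtr1a* was not tested.

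**Figure D4:**
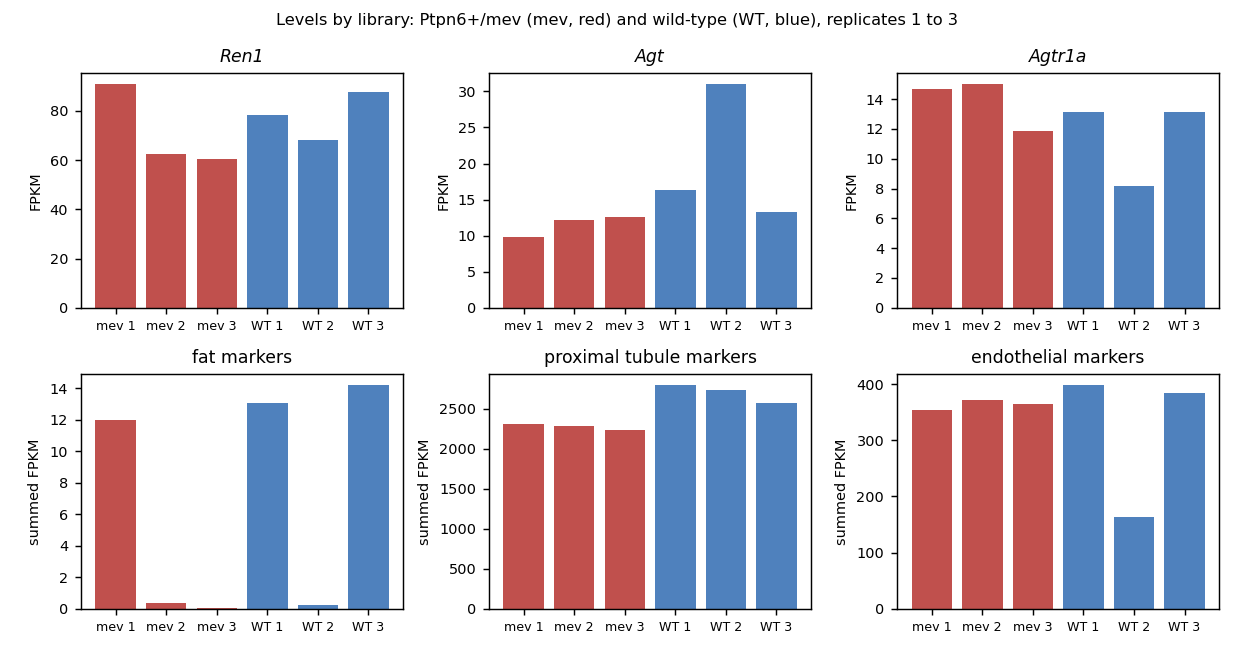
Level of *Ren1*, *Agt* and *Agtr1a* (top, FPKM) and summed level of fat, proximal tubule and endothelial markers (bottom, summed FPKM) in each library, as bars from 0, with *Ptpn6*+/mev replicates in red and wild-type replicates in blue. Fat markers were near 0 in the 3 libraries with the least *Ren1*, and wild-type replicate 2 had the most *Agt*, the least *Agtr1a* and the fewest endothelial marker fragments.

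**Figure D5:**
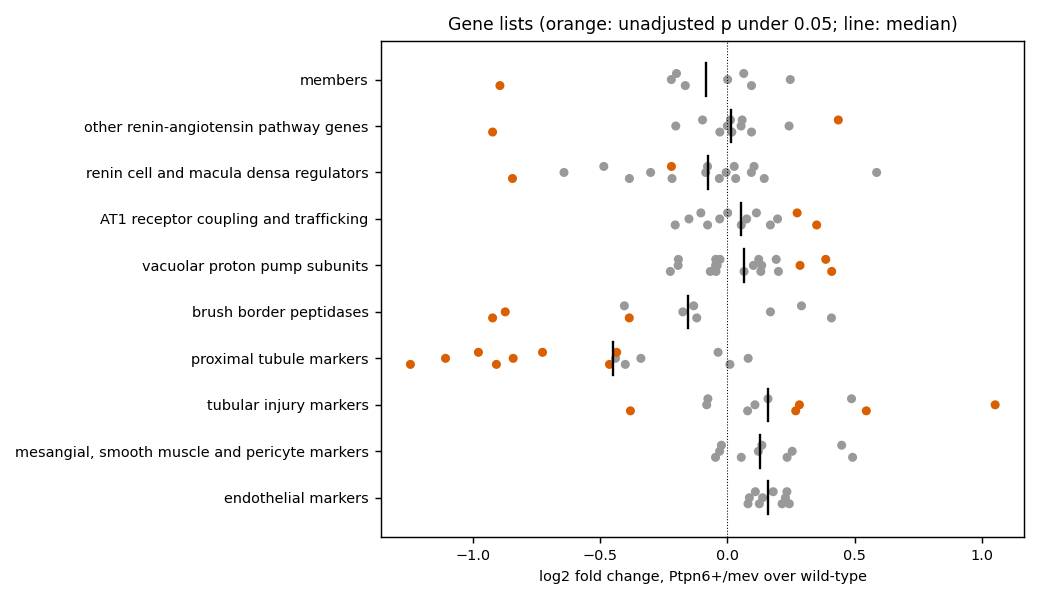
Log2 fold change of *Ptpn6*+/mev over wild-type (horizontal axis) for each tested gene of 10 lists (rows), from edgeR's fit to all 6 libraries. The top row, labelled members, is the 8 genes. Orange points have an unadjusted p under 0.05, and the vertical line of each row is its median, which was -0.45 for proximal tubule markers and -0.08 for the 8 genes.

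Genes with the most similar profile over the 6 libraries were found by the root mean square difference of centred log2 CPM, among tested genes with a range of at least 0.5. The profile nearest to *Ren1* was that of *Mlxipl*, for a glucose-responsive transcription factor, at a difference of 0.0216, followed by *Cecr2* at 0.0641, where the median gene lay at 0.382. In FPKM, *Cecr2* did not follow *Ren1* in this way, with 0.80 in wild-type replicate 1 and 1.19 in *Ptpn6*+/mev replicate 2. *Mlxipl* was listed at 29.44, 19.61 and 15.85 FPKM in *Ptpn6*+/mev mice and at 26.83, 21.54 and 33.53 FPKM in wild-type mice, high in the same 3 libraries as *Ren1*. For *Agt* the nearest were *Zfp810* (0.0686) and *Adtrp* (0.0726), with a median of 0.630, and *Adtrp* was at 26.45, 31.21 and 32.41 FPKM in *Ptpn6*+/mev mice and 42.65, 72.29 and 34.92 FPKM in wild-type mice, again highest in wild-type replicate 2. For *Ace* they were *Med31* (0.0403) and *Ighmbp2* (0.0416), and for *Mme* they were *Eif5* (0.0377) and *Usp47* (0.0497). The 6 points share 2 groups and library depth, and how common such close profiles are was not counted, so these are descriptions.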

How the data were processed

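Poly-A mRNA of 6 kidneys, 3 per genotype, was sequenced as read pairs with a library kit that does not mark strand. The authors used TopHat (TopHat2 2.0.3.12 per the labels, another version per the paper's methods) for alignment to GRCm38.p5 and Cufflinks for expression. The submitters' processing notes also name Bowtie2 and RSEM. The authors deposited 1 table with an estimated count and an FPKM value for each gene and library. Which tool made the counts is not given in the sources used here. Of 21367 genes, 1744 had counts that were not whole numbers, none of them among the 8 genes described. Columns not assigned to a sample numbered 0.

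The estimated counts as deposited were rounded and tested with edgeR 4.0.16 in R 4.3.3, with TMM scaling, the filter filterByExpr (13036 genes kept), the quasi-likelihood F-test between genotypes, and Benjamini-Hochberg adjustment over all genes tested. A gene was called at an adjusted p under 0.05. Fold changes are from counts, and the FPKM values deposited by the authors give levels per mouse. Total counts of 10271590 to 12361745 per library limit precision for genes near 0. Libraries of a group differed beyond sampling noise (chi-square per degree of freedom 6.27 to 43.3), and n counts mice. Positions and codons came from GENCODE M21 on GRCm38, matched by gene for 8 of 8.

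The 8 genes and the gene lists were chosen with earlier results of these data known, and 1 listed gene is not reported here. All 8 genes are named, and from the lists of pathway genes those with an unadjusted p under 0.05 and the 3 with the highest mean FPKM. Profiles were compared on log2 CPM with a prior count of 2. The 15 alternatives were DESeq2 size factors, upper quartile scaling, the DESeq2 1.42.0 Wald test, edgeR's exact test, limma 3.58.1 on log2 FPKM (pseudocount 1, then 0.1), no filter, a minimum of 10 counts per library, a replicate block, and leaving out each of the 6 libraries. The tests were checked on simulated counts.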

Additional observations from a re-analysis of the deposited data

How the results depend on the processing

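Of the 8 genes, 0 were called under each of the 15 alternatives. Of the alternative values computed for the 8 fold changes and the 3 counts of calls, 143 kept their direction and their side of the threshold (or stayed within 1.5 times), 14 counts moved further and 8 fold changes reversed. The log2 fold change of *Mme* was -0.000819 with DESeq2 and -0.000321 with edgeR's exact test, against 0.00068 with the quasi-likelihood test, and ranged from -0.155 to 0.309 with 1 library left out. That of *Atp6ap2* ranged from -0.0353 to 0.23 with 1 library left out. Fold changes of the other 6 genes kept their sign in every alternative. For *Agt* the lowest was -1.14, with wild-type replicate 3 left out, and the highest -0.397, with wild-type replicate 2 left out, with adjusted p between 0.117 and 0.652 over all alternatives. For *Ace* they ranged from -0.254 to -0.0245, the last with limma on log2 FPKM.

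The count of calls over all genes was 18. It was 388 with DESeq2, 390 with edgeR's exact test, 52 with no count filter and 1 with the replicate block, and with 1 library left out it ranged from 1, for *Ptpn6*+/mev replicate 3, to 237, for wild-type replicate 2. It was 4 without *Ptpn6*+/mev replicate 1, 10 without wild-type replicate 1, 11 without *Ptpn6*+/mev replicate 2 and 67 without wild-type replicate 3. The cause was not tested, beyond the number of libraries in each. Of the 12 other pathway genes, 0 were called, 1 (*Anpep*) with DESeq2 and 1 with the exact test, and 0 to 1 with 1 library left out, the 1 being *Anpep* without *Ptpn6*+/mev replicate 2 or wild-type replicate 2.

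Same-numbered libraries of the 2 genotypes had deviations from the group means that correlated at -0.144, -0.184 and -0.13 across genes. These values showed no pairing by number. They cannot exclude one, since each group mean rests on few libraries and wild-type replicate 2 stood apart. With the replicate block the log2 fold change of *Agt* was -0.794 (adjusted p = 0.44), and 0 of the 8 genes were called.

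With 3 mice per group, intervals of the log2 fold changes were as wide as -1.65 to -0.14 for *Agt* and as narrow as -0.10 to 0.29 for *Agtrap*. For *Agtr1b*, *Cma1*, *Mcpt4* and *Ctsg*, with at most 3 counts in a library, no difference could be read at this depth.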
